A study of Mus musculus with 16 samples.

Results

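Primary granules are the first granules that a maturing granulocyte makes, and 9 genes of those granules and of the precursors that make them were followed here: Mpo, Elane, Prtn3, Ctsg, Ms4a3, Gfi1, Cebpe, Cebpa and Csf3r, called the members below. They were found by taking every probe set that the array's annotation assigns to one of these symbols. Of the 9, 8 had exactly 1 probe set each and all 8 passed the filter on low signals; no probe set carried the symbol Cebpe, so that gene is named only. The array's annotation gave 18193 genes in all, of which 12735 were tested. The Entrez identifiers are 17523 for Mpo, 50701 for Elane, 19152 for Prtn3, 13035 for Ctsg, 170813 for Ms4a3, 14581 for Gfi1, 12606 for Cebpa and 12986 for Csf3r.

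Ovariectomized female C57BL/6 mice were used, and RNA of the last 5 mm of the left femur at the knee end, which holds bone and marrow, was hybridized to 1 Affymetrix array per mouse without pooling. The study asked how the estrogen receptor alpha of osteoclasts, the cells that resorb bone, shapes the response of bone to estrogen. There were 4 groups of 4 mice: wild type with vehicle (WT-OVX), wild type 4 hours after estrogen (WT-E2-4hr), osteoclast-specific estrogen receptor alpha knockout without estrogen (ERaKO-OVX) and the same knockout 4 hours after estrogen (ERaKO-E2-4hr). The design text, not the sample labels, gives vehicle as the treatment of ERaKO-OVX, and the sources used here name neither the estrogen compound and its dose nor the promoter that drives the deletion. All groups share the ovariectomy. The deletion is described as osteoclast-specific, and whether granulocyte precursors kept the receptor was not tested.

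Granulocytes arise in bone marrow, where granulocyte-monocyte progenitors become promyelocytes, the stage that fills the primary (azurophil) granules. Those granules hold myeloperoxidase, which makes hypochlorous acid, and serine proteases that digest microbes; their transcripts are abundant in promyelocytes and fade as the cells mature and turn to secondary and tertiary granule genes. The transcription factors C/EBP alpha, C/EBP epsilon and GFI1 direct this program, and the receptor for granulocyte colony-stimulating factor (G-CSF) drives the growth of the lineage. In a sample of whole bone, fewer cells of a type and less RNA per cell cannot be told apart.

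The promoters of the granule genes and of Ms4a3 are shown as sequences, and matches in the windows of all measured members are given after them. Each sequence is the 250 bases before the RefSeq start site on the gene's strand, in build GRCm38.p6, and capitals mark matches to short core motifs of PU.1 (GAGGAA), C/EBP (TTNNGNAA) or RUNX (TGTGGT), read on both strands. The windows are chr11:87793534-87793783 on the plus strand for Mpo, chr10:79886062-79886311 on the plus strand for Elane, chr10:79879417-79879666 on the plus strand for Prtn3, chr14:56102575-56102824 on the minus strand for Ctsg and chr19:11640852-11641101 on the minus strand for Ms4a3.
Mpo: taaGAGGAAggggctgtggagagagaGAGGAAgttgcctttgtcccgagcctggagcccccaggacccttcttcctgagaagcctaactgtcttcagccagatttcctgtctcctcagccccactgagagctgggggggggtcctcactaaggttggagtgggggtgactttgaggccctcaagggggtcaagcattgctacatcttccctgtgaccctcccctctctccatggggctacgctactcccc
Elane: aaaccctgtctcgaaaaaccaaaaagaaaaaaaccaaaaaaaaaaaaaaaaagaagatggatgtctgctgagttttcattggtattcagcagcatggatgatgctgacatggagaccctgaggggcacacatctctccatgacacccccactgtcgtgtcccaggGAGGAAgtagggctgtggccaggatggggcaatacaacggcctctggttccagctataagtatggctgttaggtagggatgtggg
Prtn3: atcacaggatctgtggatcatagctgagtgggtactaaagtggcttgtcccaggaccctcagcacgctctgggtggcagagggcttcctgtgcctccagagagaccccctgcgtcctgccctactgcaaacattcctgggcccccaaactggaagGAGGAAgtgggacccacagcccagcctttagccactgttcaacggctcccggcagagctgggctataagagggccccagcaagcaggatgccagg
Ctsg: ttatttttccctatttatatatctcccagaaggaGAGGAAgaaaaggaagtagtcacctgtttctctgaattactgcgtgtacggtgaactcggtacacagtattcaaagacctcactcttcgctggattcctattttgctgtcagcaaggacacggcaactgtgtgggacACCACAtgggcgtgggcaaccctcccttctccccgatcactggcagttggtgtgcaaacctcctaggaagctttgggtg
Ms4a3: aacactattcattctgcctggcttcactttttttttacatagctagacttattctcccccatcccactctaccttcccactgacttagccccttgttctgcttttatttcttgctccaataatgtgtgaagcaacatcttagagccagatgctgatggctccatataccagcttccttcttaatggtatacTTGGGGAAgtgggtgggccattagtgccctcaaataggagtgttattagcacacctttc

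The GAGGAA core was present in the promoter windows of Mpo (2 matches), Elane, Prtn3 and Ctsg, and also in that of Csf3r. That is 5 of 9 windows for the 8 measured genes (Gfi1 has 2 windows), against 23.3% of all 32851 RefSeq promoter windows of the same length. The C/EBP letters were in 2 of 9 windows, those of Ms4a3 and the first of Gfi1, against 36.8% of all windows, and the RUNX letters in 1 of 9, that of Ctsg, against 14%. Myb core letters (AACNG), which can overlap the other matches, were in 8 of 9 windows against 74.2% of all, and the letters TATAAA in 2 of 9 against 12.4%. Elane and Prtn3 are close together on chromosome 10. A match is a run of letters and not a measured binding site.

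The arrays were scaled to 1 trimmed mean of 500 each, and their median signals lay between 153 and 217. Replicates 1 and 2 of every group stood apart from replicates 3 and 4: 2285 of 12735 genes (17.9%) differed between these replicate sets in limma's moderated test at an adjusted p under 0.05, and the labels do not say what the sets are. Summed over 10 skeletal muscle genes, the signal ranged from 74229 to 593266 in the first set and from 3185 to 30213 in the other. The 18S ribosomal RNA signal also differed, from 7798 to 30653 in the first set and from 215 to 6608 in the other. For 3 arrays, WT-OVX replicate 2, WT-E2-4hr replicate 2 and ERaKO-E2-4hr replicate 1, the mean signal of the bacterial spike-in controls was 33096 to 59091 against a median of 11294 over the 16 arrays. The ratio of 3' to 5' Actb signal was 2.07 to 3.53 in those 3 arrays against a median of 1.25. Several differences of the members are given with and without these arrays. Values within replicates 1 and 2 were not computed without WT-OVX replicate 2. Results of the gene lists, and averages over the genotypes, are given with all arrays unless stated otherwise.

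Mpo encodes myeloperoxidase. Mpo signals were 20923, 23116, 20832 and 23409 in WT-OVX replicates 1 to 4, and 29269, 53936, 30075 and 28326 in WT-E2-4hr. The Mpo values were 23216, 24151, 19803 and 22584 in ERaKO-OVX and 16637, 24954, 25368 and 29274 in ERaKO-E2-4hr. All 4 estrogen-treated wild-type mice were above all 4 wild-type vehicle mice, and WT-E2-4hr replicate 2 was far above the other 3, which lay between 28326 and 30075. The knockout groups overlapped.

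Elane encodes neutrophil elastase, a serine protease of the primary granule. Elane signals were 8996, 7759, 12401 and 13880 in WT-OVX replicates 1 to 4, and 16543, 26930, 21212 and 18712 in WT-E2-4hr. The Elane values were 10377, 14256, 11566 and 13835 in ERaKO-OVX and 5795, 11673, 16356 and 19884 in ERaKO-E2-4hr. The wild-type groups did not overlap, and the knockout groups did, with ERaKO-E2-4hr replicate 1 the lowest and replicate 4 the highest of the knockout arrays.

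Prtn3 encodes proteinase 3, a close relative of elastase. Prtn3 signals were 10869, 12351, 11935 and 15187 in WT-OVX replicates 1 to 4, and 17947, 40564, 24946 and 21109 in WT-E2-4hr. The Prtn3 values were 9163, 14436, 12127 and 15521 in ERaKO-OVX and 7730, 14074, 18202 and 23271 in ERaKO-E2-4hr. The estrogen-treated wild-type mice were again all above the vehicle mice, and replicate 2 was the highest of the 16 arrays.

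Ctsg encodes cathepsin G, a granule protease with chymotrypsin-like activity. Ctsg signals were 4054, 4206, 4365 and 5379 in WT-OVX replicates 1 to 4, and 7961, 14282, 16894 and 9075 in WT-E2-4hr. The Ctsg values were 4773, 5796, 4901 and 6610 in ERaKO-OVX and 3429, 4727, 8845 and 14077 in ERaKO-E2-4hr. The wild-type groups were separate, and in the knockout the estrogen-treated replicates 3 and 4 were above every vehicle array while replicates 1 and 2 were below every one.

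Ms4a3 encodes a membrane protein with 4 membrane-spanning segments that marks granulocyte-monocyte progenitors. Ms4a3 signals were 2747, 2564, 3144 and 3883 in WT-OVX replicates 1 to 4, and 5400, 9536, 11957 and 7214 in WT-E2-4hr. The Ms4a3 values were 3428, 3702, 3484 and 4525 in ERaKO-OVX and 2260, 3887, 5392 and 10806 in ERaKO-E2-4hr. No wild-type vehicle array reached the lowest estrogen-treated one, and ERaKO-E2-4hr ran from the lowest Ms4a3 value of the 16 arrays to the second highest.

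Gfi1 encodes a transcriptional repressor needed for neutrophil maturation. Gfi1 signals were 483, 452, 498 and 534 in WT-OVX replicates 1 to 4, and 815, 957, 649 and 784 in WT-E2-4hr. The Gfi1 values were 405, 504, 619 and 937 in ERaKO-OVX and 329, 448, 840 and 1319 in ERaKO-E2-4hr. The wild-type groups did not overlap, with all vehicle arrays at or below 534, whereas ERaKO-E2-4hr held both the lowest and the highest array of the study.

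Cebpa encodes C/EBP alpha, the transcription factor that opens the granulocyte fate. Cebpa signals were 1532, 1229, 1982 and 1819 in WT-OVX replicates 1 to 4, and 1868, 1687, 2968 and 1968 in WT-E2-4hr. The Cebpa values were 1553, 1757, 1661 and 1892 in ERaKO-OVX and 1454, 1802, 2492 and 2171 in ERaKO-E2-4hr. Its groups overlapped in both genotypes.

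Csf3r encodes the G-CSF receptor. Csf3r signals were 2241, 927, 2675 and 2547 in WT-OVX replicates 1 to 4, and 2663, 2905, 1351 and 1894 in WT-E2-4hr. The Csf3r values were 2739, 3894, 2299 and 3044 in ERaKO-OVX and 1080, 1428, 1694 and 1710 in ERaKO-E2-4hr. The wild-type groups overlapped, while all 4 estrogen-treated knockout mice were below all 4 knockout vehicle mice, the opposite order to that of the granule genes in the wild type.

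**Figure D1:**
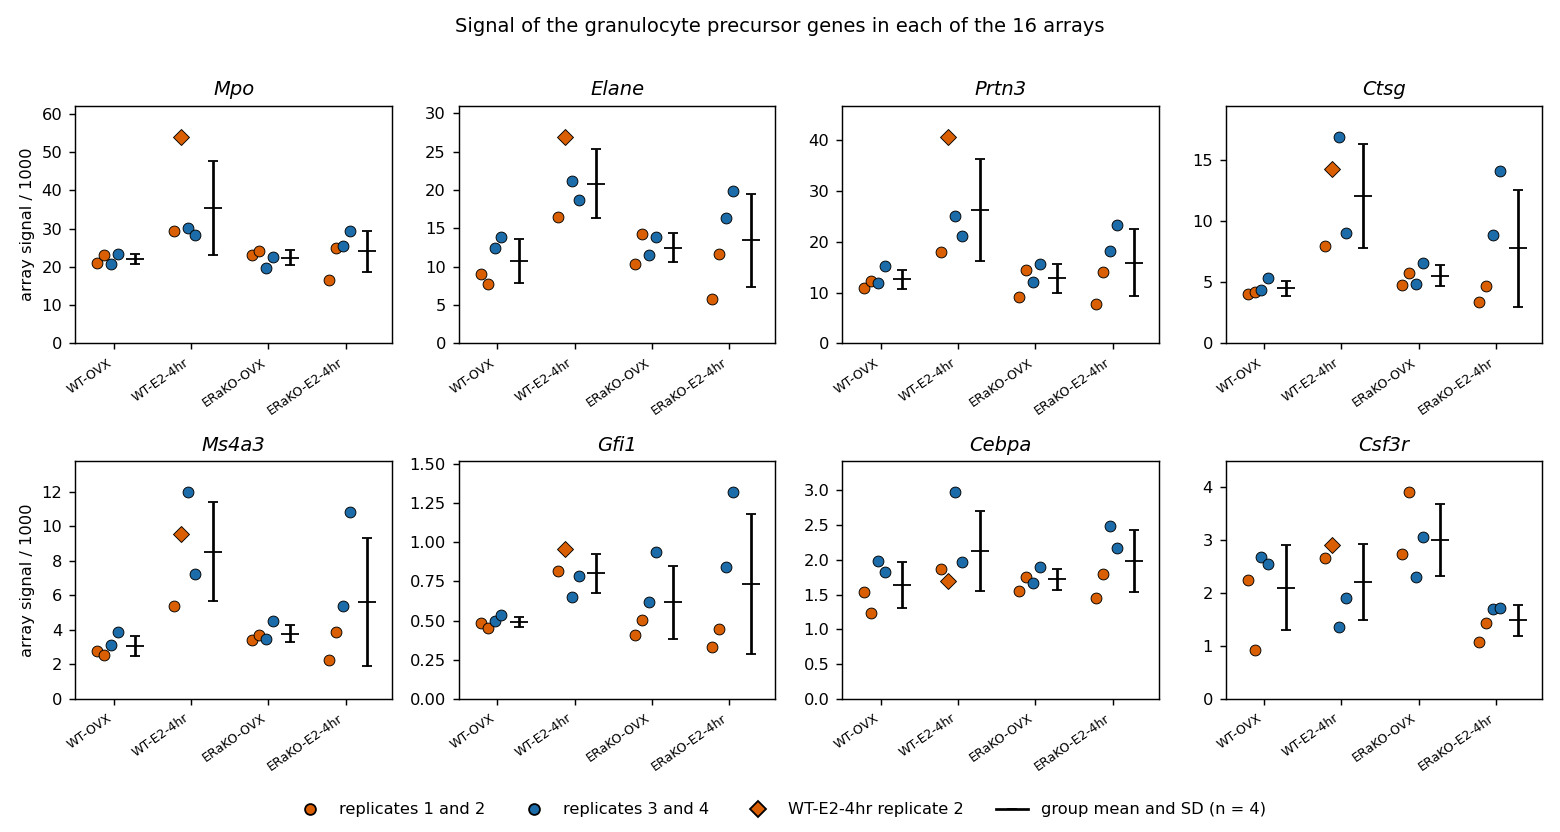
Array signal (divided by 1000, linear axes from 0) of the 8 measured genes in each mouse, with group means and SDs of 4 arrays; the diamond is WT-E2-4hr replicate 2. For Mpo, Elane, Prtn3, Ctsg, Ms4a3 and Gfi1 the WT-E2-4hr points all lie above the WT-OVX points, and for Csf3r the ERaKO-E2-4hr points all lie below the ERaKO-OVX points.

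In the wild type, 4 hours of estrogen went with higher signals of the granule genes and of Ms4a3, but no gene of the 12735 tested passed the adjusted threshold in limma, and 1107 had an unadjusted p under 0.05. The mean Ms4a3 signal was 3084 ± 585 (SD, n = 4) with vehicle and 8527 ± 2845 with estrogen. On the log2(signal + 16) scale its difference was 1.42 ± 0.35 (SE), a 2.67-fold ratio, with a limma adjusted p of 0.238. Ctsg stood at 4501 ± 599 and 12053 ± 4243, a log2 difference of 1.36 ± 0.34 and a 2.56-fold ratio (limma adjusted p = 0.240).

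Prtn3 and Elane differed by 0.99 ± 0.31 and 0.97 ± 0.31 on the log2 scale, with limma adjusted p-values of 0.329 and 0.347, and Mpo by 0.63 ± 0.22, with 0.397. For the transcription factor genes, Gfi1 differed by 0.68 ± 0.33 (limma adjusted p = 0.591) and Cebpa by 0.36 ± 0.20 (0.643). For Csf3r the difference was 0.12 ± 0.31. At an unadjusted limma p under 0.05, 5 of the 8 genes were higher with estrogen (Mpo, Elane, Prtn3, Ctsg and Ms4a3), against a background of 497 of 12735 genes (3.9%); the adjusted background was 0%. Groups without overlap, higher with estrogen, were seen for 6 of 8 genes against 2.21% of all tested genes.

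Without WT-E2-4hr replicate 2, the array with the highest Mpo, Elane and Prtn3 signals of the study, the same 6 genes showed no overlap between the wild-type groups, against 3.49% of tested genes. The WT-E2-4hr mean of Mpo was 35401 ± 12377 (SD, n = 4) with it and 29223 ± 876 (n = 3) without it, and its log2 difference went from 0.63 to 0.41 ± 0.18. The Prtn3 difference went from 0.99 to 0.76 ± 0.30. Without the array Elane stood at 0.84 ± 0.33, Ctsg at 1.25 ± 0.38 and Ms4a3 at 1.34 ± 0.39. For Csf3r the wild-type difference became -0.03 ± 0.33. Leaving out all 3 arrays with high spike-in values gave 0.43 for Mpo, 0.69 for Elane, 0.75 for Prtn3, 1.22 for Ctsg and 1.26 for Ms4a3, and -0.38 for Csf3r.

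In the knockout, the estrogen difference of the granule genes was smaller than its error and Csf3r was lower. Ms4a3 differed by 0.34 ± 0.35 on the log2 scale, Ctsg by 0.29 ± 0.34, Prtn3 by 0.22 ± 0.31, Mpo by 0.07 ± 0.22 and Elane by -0.03 ± 0.31. Gfi1 differed by 0.12 ± 0.33 and Cebpa by 0.18 ± 0.20. The mean Csf3r signal was 2994 ± 674 (SD, n = 4) in ERaKO-OVX and 1478 ± 295 in ERaKO-E2-4hr, a log2 difference of -1.01 ± 0.31 (limma adjusted p = 0.981).

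Csf3r was the 1 gene of the 8 with an unadjusted p under 0.05 in the knockout, where 3.24% of tested genes were lower by that measure and 1.66% higher. It was also the 1 whose knockout groups did not overlap, as 2.88% of genes did in that direction; the adjusted test called 0% of genes in the knockout, and 624 at an unadjusted p under 0.05. Without ERaKO-E2-4hr replicate 1, the knockout differences became 0.69 ± 0.30 for Ms4a3, 0.61 ± 0.31 for Ctsg, 0.53 ± 0.27 for Prtn3, 0.33 ± 0.24 for Elane and 0.24 ± 0.21 for Mpo, and -0.87 ± 0.33 for Csf3r.

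**Figure D2:**
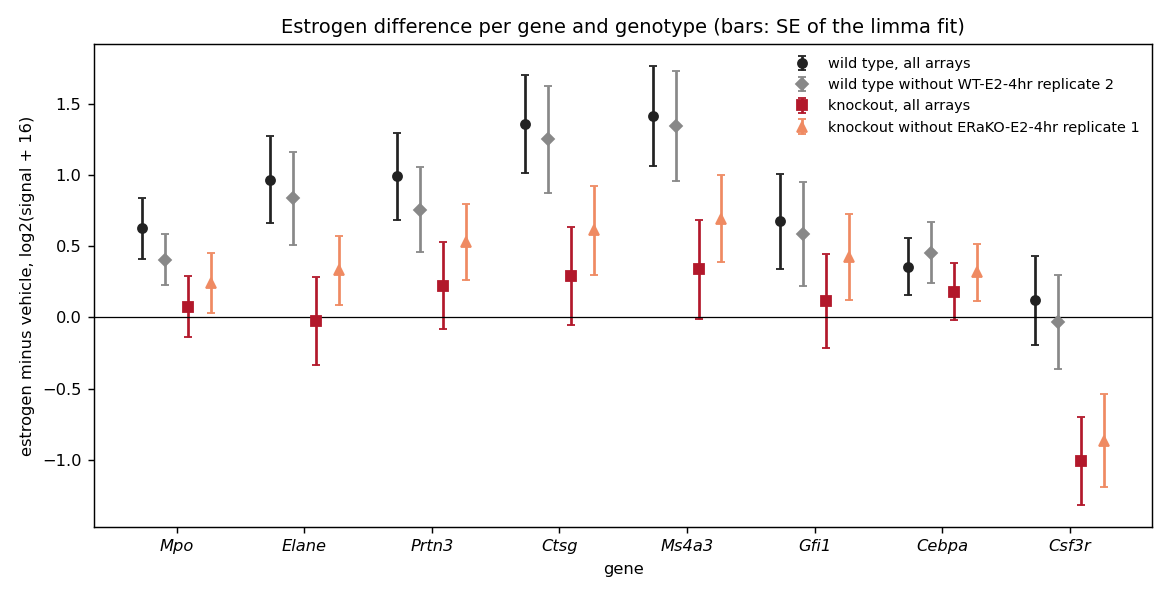
Estrogen minus vehicle on the log2(signal + 16) scale for each gene (points) with the SE of the limma fit (bars), for wild-type mice with all arrays or less WT-E2-4hr replicate 2, and for knockout mice with all arrays or less ERaKO-E2-4hr replicate 1. Ms4a3 and Ctsg have the largest wild-type differences, 1.42 and 1.36, and Csf3r the lowest knockout difference, -1.01.

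Between genotypes under vehicle, no member had a p under 0.05 (background 3.6%), and Csf3r had the largest difference, 0.59 ± 0.31 higher in the knockout. After estrogen, the knockout was lower than the wild type by 0.78 ± 0.35 for Ms4a3, by 0.78 ± 0.34 for Ctsg, by 0.76 ± 0.31 for Prtn3, by 0.75 ± 0.31 for Elane and by 0.53 ± 0.22 for Mpo. These 5 genes had an unadjusted limma p under 0.05, against 3.16% of genes lower in that way, but adjusted p-values of 0.693 to 0.721. The groups overlapped for all 8 genes, where 1.16% of tested genes were lower without overlap. Without WT-E2-4hr replicate 2 none of the 5 kept an unadjusted p under 0.05; the differences were -0.31 for Mpo, -0.62 for Elane, -0.53 for Prtn3, -0.67 for Ctsg and -0.70 for Ms4a3.

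The difference between the estrogen responses, knockout minus wild type, was -1.13 ± 0.44 for Csf3r, -1.08 ± 0.50 for Ms4a3, -1.07 ± 0.49 for Ctsg and -0.99 ± 0.44 for Elane. These 4 genes had an unadjusted p under 0.05, as 3.73% of tested genes did in that direction, and their limma adjusted p-values were 0.636 to 0.646. Prtn3 (-0.77 ± 0.43), Gfi1 (-0.56 ± 0.47), Mpo (-0.55 ± 0.30) and Cebpa (-0.18 ± 0.28) did not reach that p. No member's response was thus shown to differ between the genotypes after adjustment. When the 3 arrays with high spike-in values were left out, the differences were -0.48 for Csf3r, -0.57 for Ms4a3, -0.61 for Ctsg and -0.36 for Elane.

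Averaged over the genotypes, Ms4a3 was 0.88 ± 0.25 higher with estrogen (limma adjusted p = 0.382) and Ctsg 0.83 ± 0.24 higher (limma adjusted p = 0.471). Prtn3, Elane and Mpo differed by 0.61, 0.47 and 0.35 and Csf3r by -0.44. For this average 2 of 12735 genes (0.0157%) passed the adjusted threshold, neither of them a member, and 5 members were higher at an unadjusted p under 0.05 against 2.47% of genes. For the average genotype difference no member had an unadjusted p under 0.05 (background 3.03%), and values ran from -0.38 for Prtn3 to 0.03 for Csf3r.

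The replicate sets were then taken apart. In replicates 1 and 2, the median estrogen difference of the 8 genes was 1.08 in the wild type, with 8 of 8 higher, and -0.25 in the knockout, with 0 of 8 higher. The knockout value rests on ERaKO-E2-4hr replicate 1: without that array the median was 0.03, with Mpo, Prtn3, Ms4a3 and Cebpa, 4 of 8, higher. Without WT-E2-4hr replicate 2 the wild-type median was 0.83, with 8 of 8 higher. In replicates 3 and 4 the medians were 0.53 and 0.48, with 7 of 8 higher in each genotype; Csf3r was the exception in both. The median over all tested genes lay between -0.02 and 0.01 in each of these 4 comparisons. In replicates 3 and 4, Ms4a3 differed by 1.41 in the wild type and 0.94 in the knockout, Ctsg by 1.35 and 0.97, and Prtn3 by 0.77 and 0.58. With both genotypes together in replicates 3 and 4, no vehicle array reached an estrogen-treated array for Mpo, Elane, Prtn3, Ctsg and Ms4a3, against 2.75% of tested genes, and Csf3r was lower without overlap, against 3.42%.

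With only 2 arrays against 2 in a genotype and set, separate groups are common: 18.4% of tested genes were higher without overlap in wild-type replicates 1 and 2, where all 8 members were, and 17.5% in wild-type replicates 3 and 4, where 6 were. In knockout replicates 1 and 2 no member was higher without overlap (23.4% of genes were), and Ctsg and Csf3r were lower (23.2% of genes). Knockout replicates 3 and 4 had 6 members higher (17.4% of genes), all but Gfi1 and Csf3r, and Csf3r lower (18.5%). Csf3r had wild-type differences of opposite sign in the sets: it was 0.94 higher with estrogen in replicates 1 and 2 and 0.70 lower in replicates 3 and 4, where the knockout was lower by 1.38 and 0.63. The 0.94 rests on vehicle signals of 2241 in WT-OVX replicate 1 and 927 in replicate 2, the lowest of the 16 arrays. The WT-E2-4hr signals were 2663 and 2905, and the difference without WT-OVX replicate 2 was not computed.

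**Figure D3:**
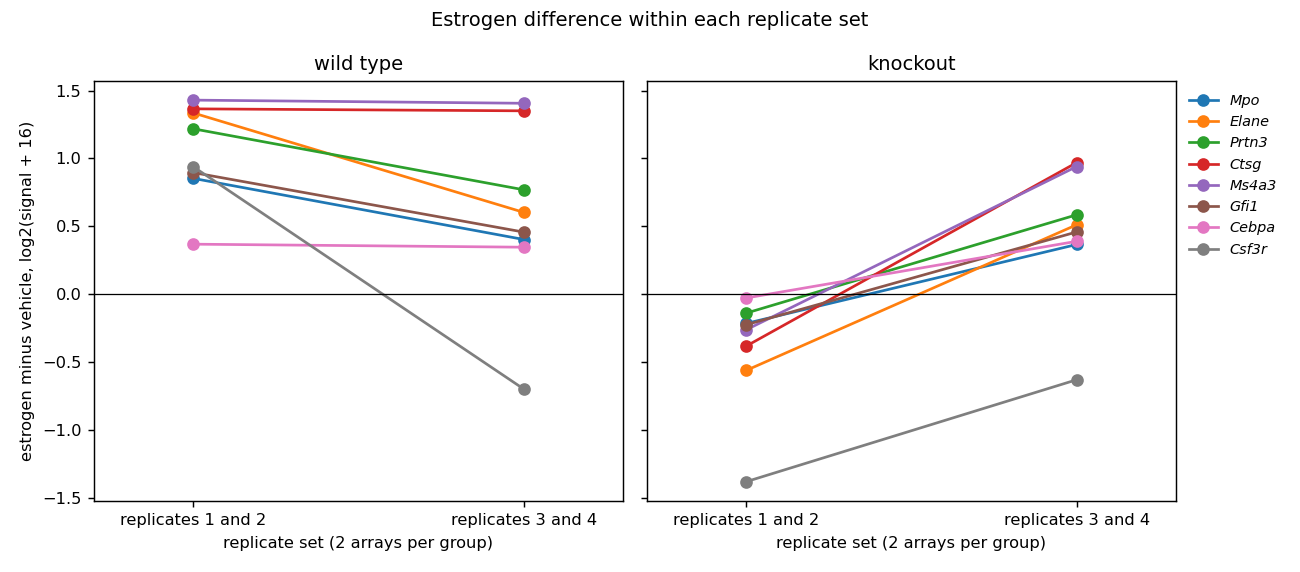
Estrogen minus vehicle (log2(signal + 16), 2 arrays per group and point) for each gene in replicates 1 and 2 and in replicates 3 and 4, for both genotypes. In the wild type all genes but Csf3r lie above 0 in both sets; in the knockout all genes lie below 0 in replicates 1 and 2 and all but Csf3r above 0 in replicates 3 and 4. Without ERaKO-E2-4hr replicate 1, 4 of the 8 genes lie above 0 in knockout replicates 1 and 2.

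A fit with 1 mean per group and replicate set, added after the values had been seen, tested these differences. It was not run without WT-OVX replicate 2, the array of lowest Csf3r signal. In replicates 1 and 2, the difference between the responses was -2.32 ± 0.47 for Csf3r, with a limma adjusted p of 0.0448; 102 of 12735 genes (0.801%) passed. The adjusted p was 0.101 without WT-E2-4hr replicate 2 (-2.26) and 0.169 without ERaKO-E2-4hr replicate 1 (-2.12), and 0.131 when replicates 1 and 2 were fitted alone. Elane stood at -1.90 ± 0.45 (limma adjusted p = 0.0564), Ctsg at -1.75 ± 0.48 (0.0776) and Ms4a3 at -1.69 ± 0.52 (0.0966). Without WT-E2-4hr replicate 2 these were -1.55 (adjusted p = 0.138), -1.33 (0.194) and -1.28 (0.234), and without ERaKO-E2-4hr replicate 1 they were -1.39 (0.218), -1.52 (0.286) and -1.30 (0.360). In replicates 3 and 4 the difference between responses was 0.07 ± 0.47 for Csf3r, -0.38 ± 0.48 for Ctsg and -0.47 ± 0.52 for Ms4a3, and 0% of genes passed.

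The knockout response itself was larger in replicates 3 and 4 than in 1 and 2 by 1.35 ± 0.48 for Ctsg, by 1.20 ± 0.52 for Ms4a3 and by 1.07 for Elane, with unadjusted limma p-values of 0.0136, 0.0348 and 0.0308 and an adjusted p of 0.761 each; 6.48% of genes had such a p. Without ERaKO-E2-4hr replicate 1 these were 1.12, 0.82 and 0.57 on the log2 scale. The wild-type response of Csf3r differed between the sets by -1.64 ± 0.47 (limma adjusted p = 0.632).

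For the level itself, Cebpa was the 1 member that passed the adjusted test between the replicate sets: it was higher in replicates 3 and 4 by 0.38 ± 0.11 (limma adjusted p = 0.0220), where 8.93% of tested genes were higher. Ms4a3 differed by 0.57 ± 0.20 (adjusted p = 0.0586), Ctsg by 0.51 ± 0.21, Gfi1 by 0.50 ± 0.20 and Elane by 0.44 ± 0.19. The Cebpa call was lost without WT-OVX replicate 3 (adjusted p = 0.0532), without ERaKO-E2-4hr replicate 3 (0.0518) and without these 3 spike-in arrays (0.140), and when arrays were centred on their medians (0.141). Quantile normalization put 6 members past the threshold and turned Mpo from -0.05 to 0.43.

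With all arrays, the median estrogen differences of the muscle genes and of the members had opposite signs in replicates 1 and 2 of each genotype. The summed muscle signal ranged from 14243 to 439507 in WT-OVX, from 8122 to 179893 in WT-E2-4hr, from 6467 to 129811 in ERaKO-OVX and from 3185 to 593266 in ERaKO-E2-4hr. The 10 muscle genes had median estrogen differences of -1.21 in the wild type and 1.80 in the knockout in that set, where the members had 1.08 and -0.25; in replicates 3 and 4 they had -0.56 and 0.30, where the members had 0.53 and 0.48. ERaKO-E2-4hr replicate 1 had the largest muscle sum of the 16 arrays, 593266, and the lowest Mpo, Elane, Prtn3, Ctsg, Ms4a3 and Gfi1 signals; without it the knockout medians in replicates 1 and 2 were 0.98 for the muscle genes and 0.03 for the members. Among replicates 3 and 4 the muscle sums of ERaKO-E2-4hr were 30213 and 3185, and both arrays had granule gene signals above those of the knockout vehicle arrays of that set. In the wild type 9 of the 10 muscle genes were lower with estrogen and in the knockout 10 of 10 were higher, with 0 past the adjusted threshold. The part of the muscle signal in the granule gene differences was not tested.

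**Figure D4:**
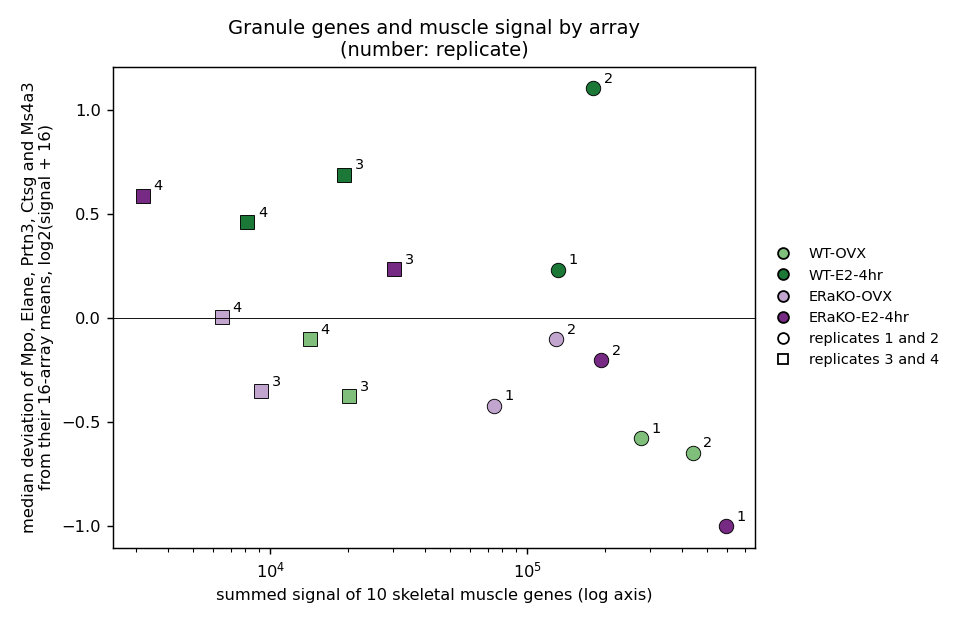
Summed signal of 10 skeletal muscle genes (log axis) and the median deviation of Mpo, Elane, Prtn3, Ctsg and Ms4a3 from their 16-array means, on the log2(signal + 16) scale, for each array; colours give groups, symbols the replicate sets and numbers the replicates. ERaKO-E2-4hr replicate 1 combines the highest muscle sum with the lowest deviation, and WT-E2-4hr replicate 2 has the highest deviation, 1.10, at a muscle sum of 179893.

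Across the 16 arrays the members varied together except Csf3r. The Pearson correlation of each gene with the mean of the other members was 0.98 for Elane, 0.93 for Ctsg, 0.92 for Ms4a3 and Prtn3, 0.80 for Gfi1, 0.78 for Mpo, 0.61 for Cebpa and 0.19 for Csf3r; the arrays share groups and replicate sets, so these are descriptions. For Ms4a3, Ctsg, Gfi1, Elane and Prtn3 the spread between mice of 1 group was largest in ERaKO-E2-4hr, with SDs on the log2 scale of 0.94, 0.91, 0.88, 0.78 and 0.68, against 0.32 for the median gene in that group. Mpo and Cebpa varied most in WT-E2-4hr (0.44 and 0.36) and Csf3r in WT-OVX (0.71). In WT-OVX the SDs of Mpo and Gfi1 were 0.09 and 0.10.

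The genes whose pattern over the 16 arrays was most like that of the members were Cst7 (r = 0.955), which encodes the protease inhibitor cystatin F, Nkg7 (0.937), Serpinb1a (0.930), an inhibitor of the granule serine proteases, Efhd2 (0.917), Ncf1 (0.914), a subunit of the phagocyte NADPH oxidase, Ero1a (0.913), Cdc25a (0.911), a cell cycle phosphatase, and Cotl1 (0.910). Cst7 signal was 719 ± 150 (SD, n = 4) in WT-OVX, 1564 ± 456 in WT-E2-4hr, 897 ± 76 in ERaKO-OVX and 1021 ± 611 in ERaKO-E2-4hr. Serpinb1a was 3957 ± 915, 9559 ± 2857, 5355 ± 857 and 5123 ± 2300 in the same order.

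Other genes of the early granule and of protease processing were likewise mostly higher in the wild type. Of 12 tested, 11 were higher with estrogen, with a median of 0.49 against -0.01 for all genes, and 0 passed the adjusted threshold. Serpinb1a differed by 1.25 ± 0.29 (limma adjusted p = 0.238) and Hp, which encodes haptoglobin, by 0.95 ± 0.28 (0.314). In the knockout 5 of 12 were higher, with a median of -0.07, and Igsf6 differed by -0.66 ± 0.28. By set, replicates 1 and 2 first, their wild-type medians were 0.56 and 0.45 and their knockout medians -0.47 and 0.30, against 1.08, 0.53, -0.25 and 0.48 for the members. Between the sets, Ctsc, which encodes the protease that activates the granule serine proteases, Nkg7 and Gusb passed as higher in replicates 3 and 4, by 0.63, 0.71 and 0.82, and Lyz2, which encodes lysozyme, as lower by 0.44; these 4 of 12 compare with 17.9% of all tested genes.

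Genes of late neutrophil maturation, those of the secondary and tertiary granules among them, were taken as a separate list. In the wild type 13 of 15 were higher, with a median of 0.27 and 0 past the threshold. In wild-type replicates 1 and 2, 12 of 15 were higher (median 0.50), and 8 of 15 (0.28) without WT-E2-4hr replicate 2. Wild-type replicates 3 and 4 had 12 of 15 higher (0.11). Lrg1, which encodes a secreted leucine-rich glycoprotein, differed by 2.08 ± 0.39 (limma adjusted p = 0.123) and the chemokine receptor gene Cxcr2 by 0.82 ± 0.36 (0.536). Cxcr2 signals ran from 440 to 2403 in WT-E2-4hr, which overlapped WT-OVX at 502 to 629. In the knockout 8 of 15 were higher, with a median of 0.03, and Lrg1 differed by 0.57 ± 0.39. Between the replicate sets 7 of 15 passed, against 17.9% of all tested genes: Ltf, Camp, Ngp, Lcn2, S100a8 and S100a9 were lower in replicates 3 and 4, by 0.42 to 0.96 on the log2 scale, and Itgam higher by 0.93. The corresponding values of Elane, Ctsg, Prtn3 and Mpo were 0.44, 0.51, 0.30 and -0.05.

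For genes of G-CSF receptor signalling the median estrogen difference was small, though single genes differed more. Of 11 tested, 9 were higher in the wild type, with a median of 0.08, and 7 in the knockout, with a median of 0.06; 0 passed in either. Socs3, the feedback inhibitor of the receptor, differed by 0.78 ± 0.43 in the wild type and 0.86 ± 0.43 in the knockout. Its groups overlapped in both genotypes. Socs3 signals ran from 765 to 1171 in WT-OVX and from 815 to 3880 in WT-E2-4hr. They ran from 712 to 1029 in ERaKO-OVX and from 1016 to 4029 in ERaKO-E2-4hr. Stat3, the factor that the receptor activates, differed by 0.65 ± 0.31 in the wild type. Among 19 genes of progenitor transcription factors and receptors, 11 were higher in the wild type and 8 in the knockout, with medians of 0.05 and -0.03 and 0 past the threshold. Cebpb, which encodes the C/EBP of emergency granulopoiesis, differed by 1.03 ± 0.28 (limma adjusted p = 0.260) in the wild type and Csf2rb, the shared chain of several cytokine receptors, by 1.03 ± 0.24 (0.238). Between the replicate sets, Kit, Runx1, Nab2 and Csf2ra passed as higher in replicates 3 and 4, by 0.46, 0.97, 0.48 and 1.05; these 4 of 19 genes compare with 17.9% of all tested genes.

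Cell cycle genes were measured because early granulocyte precursors divide. Of 15, 13 were higher in the wild type (median 0.17) and 3 in the knockout (median -0.13), with 0 past the threshold; Mcm6 differed by -0.45 ± 0.18 in the knockout. By set, 1 of 15 was higher in knockout replicates 1 and 2 (3 of 15 without ERaKO-E2-4hr replicate 1) and 14 of 15 in knockout replicates 3 and 4. Markers of other marrow cells differed by list. Monocyte genes had medians of -0.01 in the wild type and 0.06 in the knockout, and erythroid genes -0.03 and -0.08. Basophil and mast cell genes had -0.18 and -0.29, with 2 of 6 and 0 of 6 higher. T lymphocyte and NK cell genes had -0.34 and -0.45, with 2 of 7 and 1 of 7 higher. B lymphocyte genes had -0.55 and -0.64, with 0 of 7 higher in the wild type and 1 of 7 in the knockout. Eosinophil genes, of which 3 were tested, had medians of -0.68 and -0.81, and the 7 osteoclast genes, markers of the cell that carries the deletion, -0.12 and 0.12. None of these lists had a gene past the adjusted threshold for estrogen in either genotype, and the part of these cell types in the granule gene differences was not tested.

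**Figure D5:**
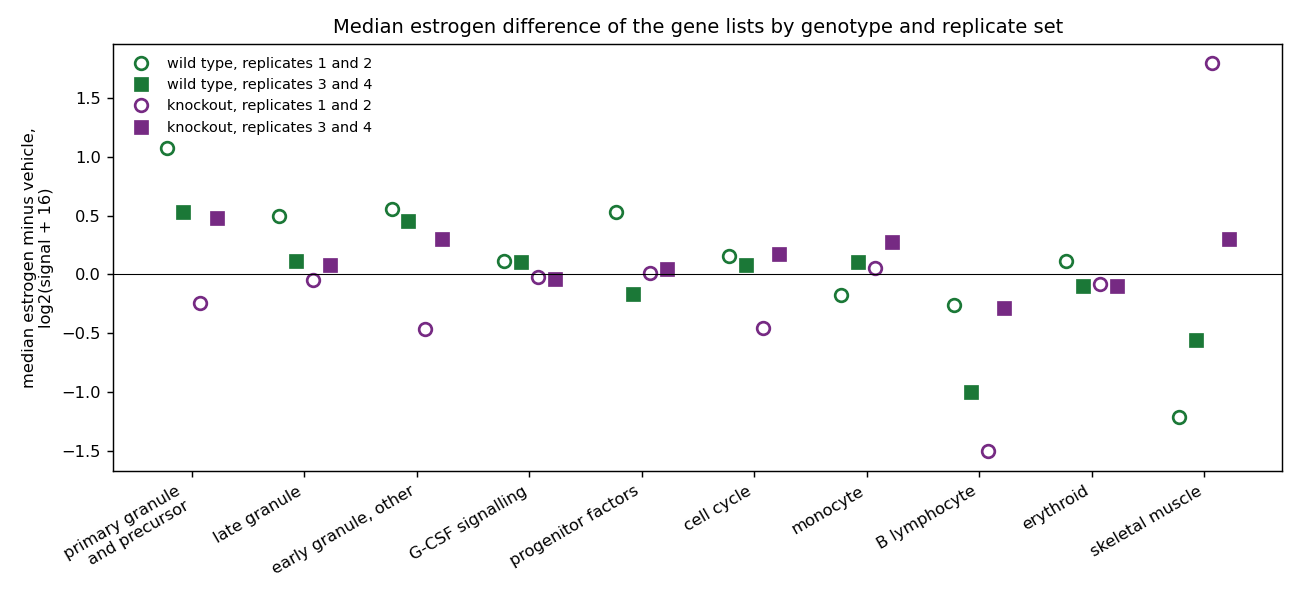
Median estrogen minus vehicle on the log2(signal + 16) scale for the members and for lists of related genes and markers, by genotype (colour) and replicate set (open circles, replicates 1 and 2; filled squares, replicates 3 and 4). In knockout replicates 1 and 2 the members are at -0.25, the other early granule genes at -0.47 and cell cycle genes at -0.46. B lymphocyte genes are at -1.51 and skeletal muscle at 1.80 in that set. Without ERaKO-E2-4hr replicate 1 the members are at 0.03, the other early granule genes at -0.31 and cell cycle genes at -0.21. B lymphocyte genes are then at -0.97 and skeletal muscle at 0.98.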

How the data were processed

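The authors deposited 1 table of Affymetrix signal intensities for 45101 probe sets and 16 arrays, made with GCOS per the submitters' processing notes; every array had the same trimmed mean. No version or further setting is given in the sources used here. The intensities were used as deposited, on the log2(signal + 16) scale. Genes came from the platform annotation (34958 probe sets with 1 symbol, 932 with several, 9211 with none listed), symbols were updated through Entrez identifiers (34754 matched), and the probe set of highest mean stood for each gene. The lowest 30% of genes by mean were left out, and 12735 genes were fitted with limma 3.58.1 in R 4.3.3 (trended empirical Bayes, 4 group means, 12 residual degrees of freedom) with Benjamini-Hochberg adjustment over all of them and a threshold of 0.05. The script was tested on simulated data. The members and gene lists were chosen with earlier results of these data known. Named genes were all members, the 2 list genes of largest difference in each comparison, any list gene that passed, and the 8 genes of most similar pattern. Each replicate is 1 mouse.

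The numbers of the replicates were checked for pairing: deviations from group means of samples with the same number correlated at 0.18 to 0.59 over 24 pairs, and those with the other number of the same set at 0.03 to 0.60, while samples of different sets correlated at -0.65 to -0.08. Fits that block on the replicate number, and fits that add the replicate set, were run, along with other pseudocounts, filters, scalings and left-out arrays. The number of arrays limits the precision.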

Additional observations from a re-analysis of the deposited data

Results flagged for a closer look

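The Mpo signal of WT-E2-4hr replicate 2, 53936, lay far from the other 3 arrays of its group: the gap to the next array was 0.932 of the group's whole range. Of 32 groups of 4 arrays examined over the 8 genes, this was the 1 so marked, and chance marks about 1 in 20 groups. The same array had the highest Elane and Prtn3 signals and 1 of the 3 high spike-in values.

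For Csf3r the estrogen responses of the genotypes differed in replicates 1 and 2, by -2.32 on the log2 scale (limma adjusted p = 0.0448, over 12735 genes), and by 0.07 in replicates 3 and 4. The fit with 1 mean per group and replicate set was added after the values had been seen. The adjusted p was 0.101 without WT-E2-4hr replicate 2, 0.169 without ERaKO-E2-4hr replicate 1 and 0.131 with replicates 1 and 2 fitted alone. In replicates 1 and 2 both wild-type estrogen arrays were above both vehicle arrays, and both knockout estrogen arrays below. WT-OVX replicate 2, the lowest of the 16 arrays for Csf3r, is 1 of the 3 arrays of high spike-in signal. The fit was not run without it.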

How the results depend on the processing

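In the comparisons of treatment and genotype, all alternatives tried left 0 members past the adjusted threshold, apart from Csf3r in the added fit with 1 mean per group and replicate set (adjusted p = 0.0448 for the difference between responses in replicates 1 and 2). With the replicate block, 0 members passed in any of them and the block changed no other call. Genes past the threshold for estrogen in the wild type (0 by the reported test) numbered 5 with array quality weights, 5 with the replicate set as a term and 0 to 2 with 1 array left out. For estrogen in the knockout they were 1 with a filter at the 50th percentile, with quantile normalization, with array quality weights, with the set as a term, and with the set as a term and WT-E2-4hr replicate 2 left out (added after seeing the data), 2 without the 3 arrays with high spike-in values and 0 to 3 with 1 array left out. Knockout minus wild type under vehicle gave 1 with array quality weights, the difference between responses 4 within replicates 1 and 2, and the average genotype difference 1 with the set as a term, also without WT-E2-4hr replicate 2, and 0 to 1 with 1 array left out. The average estrogen difference (2 genes) gave 1 with median centring, with all probe sets or with no variance trend, 6 with array quality weights, 8 with the set as a term, 0 within replicates 1 and 2, and 1 to 3 with 1 array left out. The replicate sets (2285 genes) gave 5030 with all probe sets, 1250 without the 3 arrays and 1512 to 2495 with 1 array left out. Members past the threshold between the sets (1) numbered 6 with quantile normalization, where Mpo reversed to 0.43, 0 with median centring, 2 with array quality weights, 0 without the 3 arrays and 0 to 3 with 1 array left out.

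The median of the members for knockout minus wild type after estrogen (-0.64) was -0.23 without the 3 arrays, -1.22 within replicates 1 and 2, -0.12 within replicates 3 and 4 and -0.82 to -0.39 with 1 array left out. For the difference between responses (-0.88) it was -0.35 with array quality weights, -0.29 without the 3 arrays, -1.53 within replicates 1 and 2, -0.064 within replicates 3 and 4 and -1.10 to -0.55 with 1 array left out. Between the sets (0.41) it was -0.16 in WT-E2-4hr alone, 1.06 in ERaKO-E2-4hr alone and 0.31 to 0.50 with 1 array left out. With 1 array left out, the median of the wild-type response lay between 0.67 and 0.90 and that of the knockout response between -0.06 and 0.38, so that the knockout median changed sign. Within replicates 1 and 2 the knockout median (-0.25) was 0.03 without ERaKO-E2-4hr replicate 1 and the wild-type median (1.08) 0.83 without WT-E2-4hr replicate 2, both added after seeing the data. Of 2120 values for single genes under alternatives, 1991 kept direction and side of the threshold. The cause of these shifts was not tested.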
